A study of Mus musculus with 15 samples.

Results

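Clone A of the mouse mammary carcinoma line 4T1 was compared with the parental 4T1 population across all measured genes. A was grown from 1 parental cell transfected with the plasmid pNLS-iRFP670, which encodes a near-infrared fluorescent protein sent to the nucleus, and was kept in G418, which was withdrawn before RNA was collected. The parental population was the untransfected 4T1 line. Both grew in the same RPMI-1640 medium with serum and gentamicin, and cells were harvested for RNA at roughly 80% confluency, 72 h into culture. The 3 A libraries and the 3 parental libraries, assigned by their labels, are 6 of the 15 libraries of the study, whose other clones, E1, E2 and M, were made in the same way and served as a second comparison. A is a single clone, so its differences from the parental cells are those of 1 founder cell and its descendants. Transfection, single-cell isolation and G418 cannot be told apart from the clone itself in the comparison with the parental cells, but all 4 clones share them.

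4T1 cells form tumours in mice that spread to lung, liver and bone, and the line holds subclones that differ in this behaviour. Cells that lack amino acids or carry unfolded protein in the endoplasmic reticulum (ER) slow general translation and make more of the transcription factor ATF4. ATF4 then binds short sites near genes for amino acid uptake, amino acid synthesis and tRNA charging and raises their transcription. Other arms of the ER response, through ATF6 and through XBP1, act on chaperone genes among others. Osteopontin and other acidic phosphoproteins, matrix metalloproteases and adhesion receptors shape the matrix around tumour cells.

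The A libraries held 28689958 to 32712813 counts and the parental libraries 25427438 to 31598326. The 6 identifiers with the most counts, which are part of these totals, left 10218498 to 11454056 counts in A and 7096885 to 11120148 in parental cells for all other genes. They include the mitochondrial ribosomal RNAs mt-Rnr1 and mt-Rnr2 and the gene Lars2, and the rest had no symbol. Of 27179 identifiers, 12712 had enough counts to be tested. Levels are in CPM, counts scaled to the size of each library and for its composition (TMM factors) and not for gene length, so levels of different genes are not compared. A gene is called when its adjusted p is under 0.05, and fold changes are A over parental on the log2 scale with a standard error (SE) over 3 and 3 libraries. The epithelial genes Epcam, Krt7, Krt8, Krt18, Krt19, Cdh1, Cldn3 and Cldn4 summed to 717 to 863 CPM in A and 350.0 to 397 CPM in parental cells. Of 8 leukocyte markers 5 were at 0 in A and 6 in parental cells, with sums of at most 1.10 CPM in A and 0.975 CPM in parental cells. Ptprc was at 0 in both. Of 6 endothelial markers 4 were at 0 in A and 2 in parental cells, with sums of at most 0.430 CPM in A and 0.283 CPM in parental cells.

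Of the tested genes 3814 (30% of 12712) were called, 15.1% higher and 14.9% lower in A. The 3 A libraries did not overlap the 3 parental libraries for 44.6% of tested genes. Changes of at least 8-fold were seen for 101 called genes that were higher in A and 50 that were lower. The median log2 fold change over all tested genes was 0.03. The gene lists below are read against these shares. Genes named by the rule given at the end had to have libraries without overlap. Statements that their ranges were apart restate that choice and add no support. Further list members were added after their values were seen.

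Sema7a, Mmp3 and Lgr6 were among the genes that rose most in A. Sema7a, a membrane-anchored semaphorin that binds integrins (identifier 20361, chromosome 9, 57939596 to 57962865, GRCm38), had 41.3, 37.6 and 44.5 CPM in A, against 2.46, 1.22 and 2.39 CPM in parental cells (log2 fold change 4.30, SE 0.32, adjusted p = 2.02e-11). Mmp3, the matrix metalloprotease stromelysin 1 (identifier 17392, chromosome 9, 7445822 to 7455975), had 134, 172 and 112 CPM in A, against 5.20, 11.3 and 9.04 CPM in parental cells (log2 fold change 4.02, SE 0.38, adjusted p = 0.00214). Lgr6, a receptor for R-spondins that marks epithelial stem cells in skin, had 85.5, 74.3 and 77.8 CPM in A, against 3.20, 6.89 and 5.04 CPM in parental cells (log2 fold change 3.95, SE 0.32, adjusted p = 6.24e-10). In all 3 genes the lowest A library lay several-fold above the highest parental library.

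Among genes of lower level, Edil3, a secreted ligand of integrins, averaged 11.7 ± 0.446 CPM in A and 0.657 ± 0.313 CPM in parental cells (SD, n = 3 each). Fbln1, the matrix protein fibulin 1, averaged 6.01 ± 1.75 CPM in A and 0.243 ± 0.0657 CPM in parental cells. S100a16, a small calcium-binding protein, averaged 7.36 ± 3.33 CPM in A, and 2 of the 3 parental libraries had none of its reads. Efr3b, which anchors a lipid kinase at the plasma membrane, Gprc5b, an orphan receptor, and Tmie, a membrane protein known from inner ear hair cells, had log2 fold changes of 3.98, 3.77 and 3.88. The 3 A libraries of each of these genes lay above all parental libraries.

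The largest fall of any tested gene was that of Mal2, at 0.0205 CPM in A and 21.6 CPM in parental cells (log2 fold change -7.91, adjusted p = 1.14e-10). Hmox1, Adh7 and Nup210 were also among the genes that fell most. Hmox1, the enzyme that degrades heme (identifier 15368, chromosome 8, 75093618 to 75100593), had 1.26, 0.978 and 0.307 CPM in A, against 10.6, 11.6 and 5.45 CPM in parental cells (log2 fold change -3.34, SE 0.65, adjusted p = 8.84e-08). Adh7, an alcohol dehydrogenase that acts on retinol (identifier 11529, chromosome 3, 138198064 to 138232042), had 2.42, 4.08 and 2.31 CPM in A, against 22.4, 25.3 and 26.9 CPM in parental cells (log2 fold change -3.06, SE 0.27, adjusted p = 1.57e-10). Nup210, a membrane protein of the nuclear pore, had 6.05, 4.44 and 5.01 CPM in A, against 44.7, 28.3 and 37.7 CPM in parental cells (log2 fold change -2.82, SE 0.23, adjusted p = 1.51e-09). No A library reached the lowest parental library in any of them. Ctsc, the lysosomal protease cathepsin C, Ank2, an ankyrin that ties membrane proteins to spectrin, and Gcat, a mitochondrial enzyme of threonine breakdown, had log2 fold changes of -2.97, -3.26 and -2.62.

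**Figure D1:**
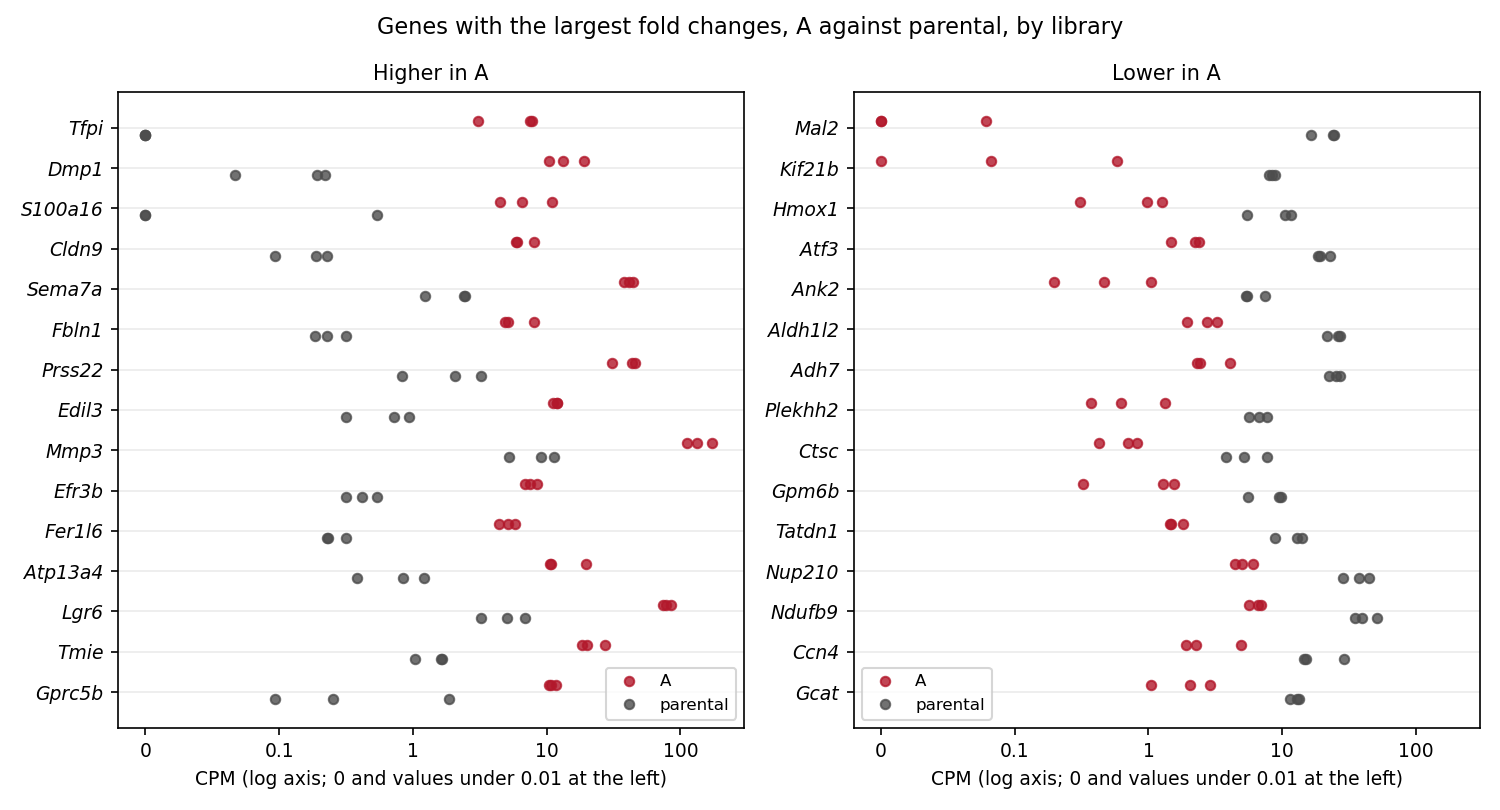
CPM on a log axis in each of the 3 A libraries (red) and 3 parental libraries (grey) for the 15 genes with the largest rise and the 15 with the largest fall in A. The genes were taken by fold change from those whose libraries do not overlap, so the separation of the colours is part of how they were chosen.

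ATF4 target genes fell together in A, in a list chosen with earlier results of these data known. Of 31 tested genes of the ATF4 and amino acid response list, 26 (83.9%) were called lower and 0 higher, against 14.9% and 15.1% of all tested genes. The median log2 fold change of the list was -1.11. With DESeq2 and with a replicate block 1 member was called higher, and across all alternatives 24 to 27 were called lower. The lower members came from every role in the list, namely 9 of 11 regulators, 7 of 8 amino acid transporters, 7 of 8 aminoacyl-tRNA synthetases and 3 of 4 other members. They lay on 14 chromosomes.

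The list is known for a short site, bound by ATF4 together with a C/EBP partner, with the letters TGATGNAA on either strand (TTNCATCA on the other). In the 250 bases before the annotated starts of RefSeq promoters (GRCm38.p6), this string was present for 3.91% of 27025 genes and for 10 of the 25 list members with a promoter in the table (40%). Among the 9704 tested genes with a promoter 234 held it, these 10 included. The following stretches, 5′ to 3′ on the strand of the gene, show the match in capitals in members that fell, to let the shared string be seen in otherwise different promoters.
Atf3: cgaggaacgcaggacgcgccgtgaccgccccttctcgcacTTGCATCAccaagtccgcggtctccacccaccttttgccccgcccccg
Chac1: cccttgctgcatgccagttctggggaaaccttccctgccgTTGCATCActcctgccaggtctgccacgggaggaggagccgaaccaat
Asns: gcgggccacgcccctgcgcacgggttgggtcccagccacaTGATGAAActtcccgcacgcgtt
Vldlr: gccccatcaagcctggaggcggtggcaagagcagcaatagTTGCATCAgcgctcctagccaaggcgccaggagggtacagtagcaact
Nupr1: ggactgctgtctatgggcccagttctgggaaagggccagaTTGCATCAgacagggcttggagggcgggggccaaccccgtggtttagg
Slc7a11: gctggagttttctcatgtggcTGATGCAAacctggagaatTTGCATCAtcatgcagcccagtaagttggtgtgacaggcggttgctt
Aars: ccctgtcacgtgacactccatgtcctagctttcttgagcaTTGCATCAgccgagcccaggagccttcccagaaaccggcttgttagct
Tars: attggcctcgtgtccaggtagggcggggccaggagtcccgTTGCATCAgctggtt

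The stretches lie at chr1:191183396-191183483 on the minus strand for Atf3, chr2:119351009-119351096 on the plus strand for Chac1 and chr6:7693210-7693272 on the minus strand for Asns. They lie at chr19:27216780-27216867 on the plus strand for Vldlr and chr7:126625533-126625620 on the minus strand for Nupr1. Those of Slc7a11, Aars and Tars are at chr3:50443614-50443700 (minus strand), chr8:111033690-111033777 (plus strand) and chr15:11399659-11399713 (minus strand). Slc7a11 held 2 matches on opposite strands. The match was at different distances from the start, with its first base 110 bases before it in Atf3 and Nupr1, 193 in Chac1 and 23 in Asns. Of the 10 members with a match 9 were called lower, the exception being Fgf21, and of the 14 tested members whose promoter held no match 12 were called lower. Outside the list, 42 of 224 tested genes with the string were called lower (18.8%) and 33 higher (14.7%), where 15% and 15.9% of all 9704 tested genes with a promoter were. A match is a run of letters in a window, not a measured site.

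Atf4 itself (identifier 11911, chromosome 15, 80255184 to 80257545) had 49.5, 44.5 and 42.5 CPM in A, against 97.7, 83.8 and 72.8 CPM in parental cells (log2 fold change -0.90, SE 0.14, adjusted p = 0.000134). Atf3, a stress-induced repressor that ATF4 activates, had 2.23, 1.47 and 2.40 CPM in A, against 22.7, 19.3 and 18.4 CPM in parental cells (log2 fold change -3.26, SE 0.23, adjusted p = 1.36e-09). Nupr1, a small stress-induced chromatin protein, averaged 0.655 ± 0.0414 CPM in A and 2.88 ± 1.11 CPM in parental cells (SD, n = 3 each). Atf4 moved by less than either of these genes, and its libraries too did not overlap.

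Trib3, a pseudokinase that dampens ATF4 and AKT signalling, had 18.6, 21.1 and 15.9 CPM in A, against 57.0, 52.5 and 46.1 CPM in parental cells (log2 fold change -1.48, SE 0.15, adjusted p = 8.67e-08). Ddit3, which encodes CHOP, averaged 3.96 ± 0.522 CPM in A and 7.86 ± 0.832 CPM in parental cells (log2 fold change -0.98, adjusted p = 0.00351). Eif4ebp1, an inhibitor of cap-dependent translation, and Ddit4 and Sesn2, which restrain the growth kinase complex mTORC1, had log2 fold changes of -1.45, -0.78 and -0.87. The call of Sesn2 was lost without A replicate 2 or 3 (adjusted p up to 0.0873). The regulators Atf5 (log2 fold change 0.12, adjusted p = 0.607) and Cebpb (-0.25, adjusted p = 0.363) did not pass the test.

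Asns, asparagine synthetase, had 51.4, 44.5 and 44.1 CPM in A, against 137, 102 and 131 CPM in parental cells (log2 fold change -1.40, SE 0.15, adjusted p = 1.25e-07). Chac1, which breaks down glutathione, had 6.51, 5.97 and 4.12 CPM in A, against 15.4, 12.1 and 11.5 CPM in parental cells (log2 fold change -1.22, SE 0.24, adjusted p = 5.65e-05). Slc7a11, the cystine importer, had 49.0, 42.3 and 40.1 CPM in A, against 72.3, 146 and 108 CPM in parental cells (log2 fold change -1.31, SE 0.31, adjusted p = 1.12e-05). All 3 genes were lower in every A library, although the parental libraries of Slc7a11 were widely spread.

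Its partner chain Slc3a2 (52.7, 52.5 and 46.4 CPM in A, against 126, 112 and 132 CPM in parental cells) and Slc7a5, which pairs with Slc3a2 to carry leucine and other large amino acids (97.2, 101 and 83.1 CPM in A, against 183, 215 and 212 CPM in parental cells), had log2 fold changes of -1.29 and -1.11. The arginine and lysine importer Slc7a1, the glutamine and neutral amino acid carriers Slc1a5 and Slc1a4, and Slc38a2, a sodium-coupled carrier of small neutral amino acids, had -1.30, -1.27, -1.20 and -0.64. Slc7a3 averaged 0.457 CPM in A and 0.227 CPM in parental cells and did not pass the test (adjusted p = 0.592).

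The aminoacyl-tRNA synthetases, which load tRNAs with their amino acids, fell for 7 of 8 members, by 0.54 to 1.35 on the log2 scale. Tars, for threonine, had 62.4, 71.1 and 73.9 CPM in A, against 152, 179.6 and 198 CPM in parental cells. Aars, for alanine, had 89.9, 94.6 and 103 CPM in A, against 307, 195 and 221 CPM in parental cells. Gars, for glycine, had 121, 116 and 124 CPM in A, against 191, 199 and 194 CPM in parental cells (log2 fold change -0.70, SE 0.035, adjusted p = 0.000152). The ranges of A and parental libraries were apart in each, and narrowest for Gars. Nars, Wars, Sars and Mars1 had log2 fold changes of -1.05, -0.94, -0.80 and -0.54, and Cars had 0.35 (adjusted p = 0.0557). The call of Mars1 did not hold without A replicate 1 or 3 or parental replicate 1 or 3 (adjusted p up to 0.136).

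ATF4 also feeds serine synthesis and the folate-linked transfer of one-carbon units. Of 14 tested enzymes 9 (64.3%) were called lower and 0 higher, the median log2 fold change being -0.68. In the fits with no filter on low counts or without A replicate 3, 1 was called higher. Mthfd2, the mitochondrial folate enzyme that is high in many tumours (identifier 17768, chromosome 6, 83305704 to 83326011), had 29.5, 26.5 and 23.2 CPM in A, against 72.1, 85.7 and 94.3 CPM in parental cells (log2 fold change -1.67, SE 0.15, adjusted p = 3.04e-09). Phgdh, the first enzyme of serine synthesis, had 79.0, 90.9 and 87.5 CPM in A, against 172, 131 and 136 CPM in parental cells (log2 fold change -0.77, SE 0.14, adjusted p = 0.000116). Psat1, the second, had 216, 229.8 and 213 CPM in A, against 284, 358 and 380.2 CPM in parental cells (log2 fold change -0.63, SE 0.13, adjusted p = 0.00212). No A library of the 3 enzymes reached the parental range.

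Aldh18a1, which makes the precursor of proline, and the cytosolic folate enzymes Shmt1 and Mthfd1 had log2 fold changes of -1.20, -1.08 and -0.84. Psph, the last enzyme of serine synthesis, and mitochondrial Shmt2 had -0.32 (adjusted p = 0.179) and -0.41 (adjusted p = 0.0899). Tyms, which makes thymidylate and does not belong to the serine route, had 0.77 (adjusted p = 0.0692) and also did not pass the test. The TGATGNAA string was found before 1 of the 12 members with a promoter, Pycr1, which was not called.

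**Figure D2:**
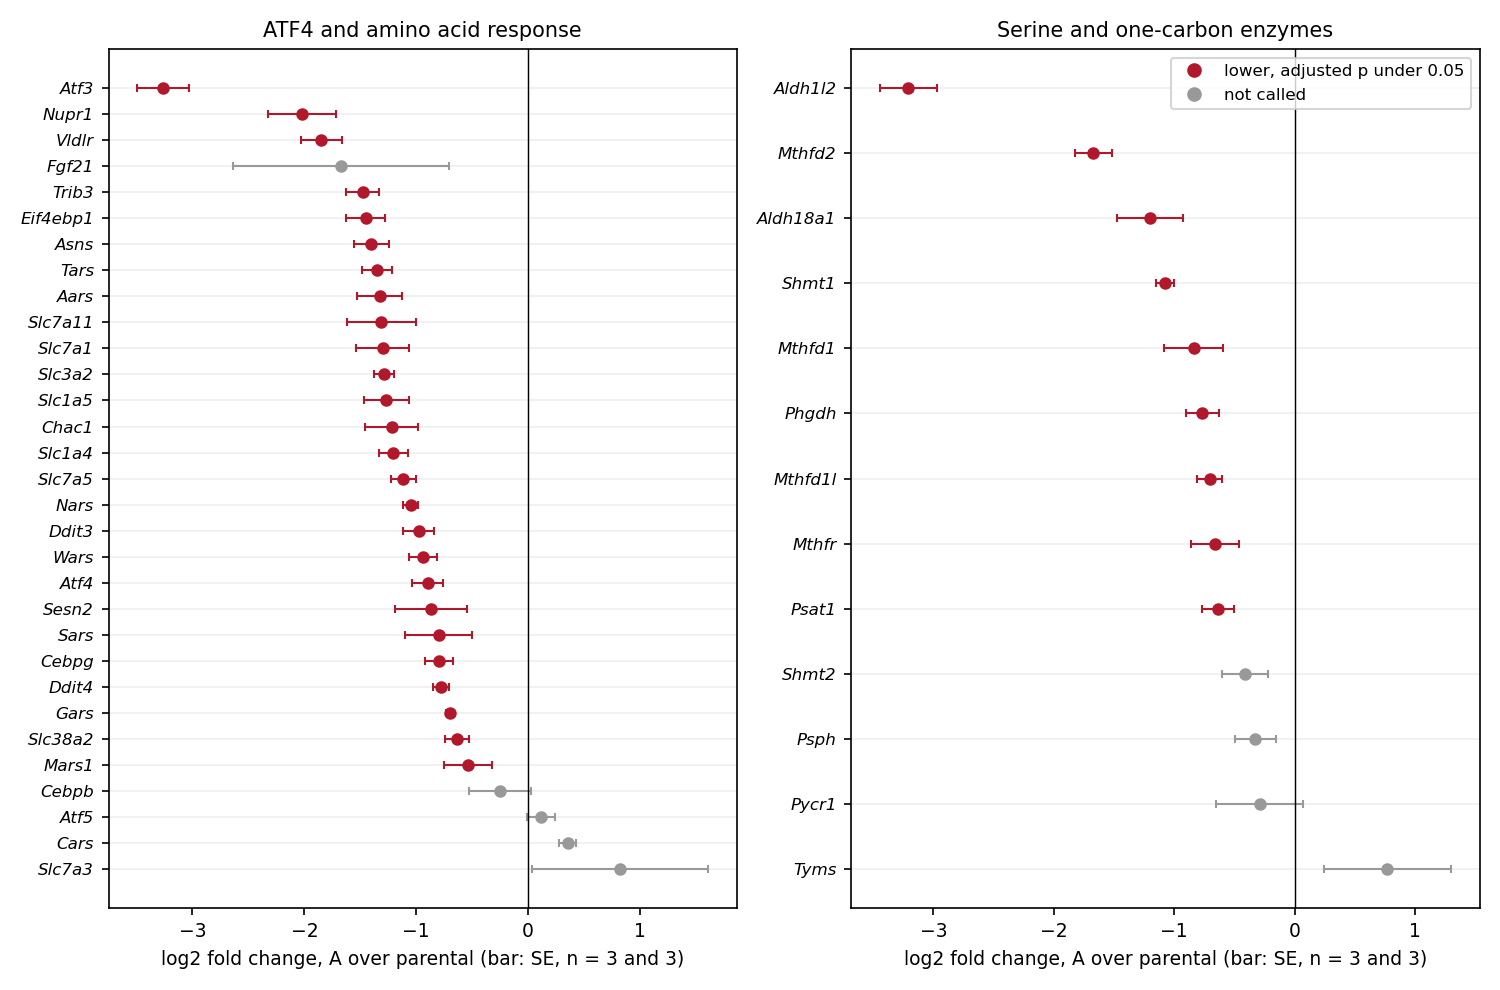
Log2 fold change of A over parental with its SE (n = 3 and 3) for each tested member of the ATF4 and amino acid response list (left) and all but 1 of the serine and one-carbon list (right). Red points were called lower and grey points were not called, and most points of both lists lie left of 0.

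Of 24 tested genes of ER protein folding, 7 (29.2%) were called lower and 1 (4.17%) higher, with a median log2 fold change of 0.10 over the list. Without A replicate 1 only 3 were called lower, and without parental replicate 2 or 3 only 4. The 1 higher call, of Pdia3, was lost without A replicate 2 or 3, parental replicate 1 or 3 or the 6 genes with the most counts (adjusted p up to 0.169), and 2 were called higher under 4 other alternatives. Hspa5, which encodes the main ER chaperone BiP (identifier 14828, chromosome 2, 34772090 to 34776529), had 205, 225 and 231 CPM in A, against 1087, 923 and 943 CPM in parental cells (log2 fold change -2.16, SE 0.09, adjusted p = 4.32e-11). Derl1, a channel protein that returns misfolded protein to the cytosol, had 9.60, 9.69 and 9.38 CPM in A, against 48.1, 49.6 and 44.6 CPM in parental cells (log2 fold change -2.30, SE 0.048, adjusted p = 8.15e-11). Herpud1, a scaffold of the same pathway, had log2 fold change -1.0. Against these, the chaperone Hsp90b1 averaged 443 ± 58.9 CPM in A and 342 ± 46.7 CPM in parental cells (log2 fold change 0.37, adjusted p = 0.0854), and Calr and Pdia4 had log2 fold changes of -0.11 and 0.13 that did not pass the test.

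The known site of ATF6 with NF-Y before chaperone genes, CCAAT and CCACG with any 9 bases between them, was searched on both strands and was present in the same 250 bases for 0.13% of all genes and for 9 of the 21 ER genes with a promoter (42.9%). It was present for 0 of 25 ATF4 list members. Of the 9 ER genes with it, Hspa5 and Canx were called lower and 0 were called higher. Canx had log2 fold change -0.43, a call lost without A replicate 1 or parental replicate 2 (adjusted p up to 0.0694). The stretches of Hspa5 (chr2:34771985-34772083, plus strand), which fell, and Hsp90b1 (chr10:86705493-86705591, minus strand), which did not pass the test, show in capitals both fixed ends of a match. Hspa5 held 1 match and Hsp90b1 held 2, of which only that nearest the start is marked.
Hspa5: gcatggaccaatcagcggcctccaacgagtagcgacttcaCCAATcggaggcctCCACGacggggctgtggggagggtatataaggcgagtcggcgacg
Hsp90b1: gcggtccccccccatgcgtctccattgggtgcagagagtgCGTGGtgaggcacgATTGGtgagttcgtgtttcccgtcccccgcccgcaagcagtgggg

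Myc, the growth-promoting transcription factor (identifier 17869, chromosome 15, 61985341 to 61990361), had 34.2, 40.9 and 37.6 CPM in A, against 227, 157 and 195 CPM in parental cells (log2 fold change -2.36, SE 0.17, adjusted p = 2.02e-11). Ncl, the nucleolar protein nucleolin, had 386, 441 and 397 CPM in A, against 1061, 1013 and 1049 CPM in parental cells (log2 fold change -1.35, SE 0.061, adjusted p = 3.42e-08). Npm1, nucleophosmin, had 261, 339 and 303 CPM in A, against 693, 653 and 722 CPM in parental cells (log2 fold change -1.20, SE 0.12, adjusted p = 6.53e-07). The A and parental ranges were far apart in each. Eif5a, a translation factor, had log2 fold change -1.06. Of 45 cytosolic ribosomal proteins 17 (37.8%) were called lower and 0 higher, with a median of -0.43 and Rpl7a and Rpl18 at -1.12 and -0.99. Ribosomal protein genes have many processed copies, so their counts are uncertain, and against the mean of E1, E2 and M the same list had 11 called higher and 1 lower.

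Of 45 proliferation genes 11 (24.4%) were called higher and 0 lower, but 7 higher without A replicate 1 and 6 without A replicate 2 or parental replicate 3, and 0 to 3 lower across alternatives. Ccnd1, which encodes cyclin D1, had 822, 793 and 717 CPM in A, against 397, 385 and 424 CPM in parental cells (log2 fold change 0.95, SE 0.072, adjusted p = 7.12e-06). E2f8, an atypical E2F factor that represses other E2F targets, had 36.0, 31.3 and 31.6 CPM in A, against 10.1, 9.68 and 10.5 CPM in parental cells (log2 fold change 1.70, SE 0.073, adjusted p = 4.3e-07). Rrm2, a ribonucleotide reductase subunit, had 29.4, 31.8 and 36.1 CPM in A, against 17.9, 13.2 and 16.8 CPM in parental cells (log2 fold change 1.02, SE 0.16, adjusted p = 9.12e-05). All 3 rose with no overlap, while the median of the list was 0.27.

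Among p53 targets, cell cycle inhibitors and BCL2 family genes, 10 of 25 (40%) were called lower and 7 (28.0%) higher. Trp53 reads were present at 10.7, 8.90 and 7.32 CPM in A, against 29.0, 18.8 and 21.1 CPM in parental cells (log2 fold change -1.35, SE 0.24, adjusted p = 2.97e-05). The targets Plk2, a polo-like kinase, Aen, a nuclease, and Gadd45a, a DNA damage protein, had log2 fold changes of -2.13, -1.76 and -1.47. Cdkn1a, another target and an inhibitor of cyclin-dependent kinases, averaged 3.82 ± 0.898 CPM in A and 1.02 ± 0.511 CPM in parental cells (log2 fold change 1.85, adjusted p = 0.00672), the opposite direction. Of the BCL2 family, the death-promoting Bcl2l11 had 179, 169 and 187 CPM in A, against 44.9, 77.2 and 55.3 CPM in parental cells (log2 fold change 1.59, SE 0.23, adjusted p = 1.29e-05), and the survival gene Bcl2 had 69.5, 54.9 and 75.8 CPM in A, against 29.6, 33.2 and 36.2 CPM in parental cells (log2 fold change 1.01, SE 0.16, adjusted p = 9.45e-06). Both rose, while the death-promoting Bid had log2 fold change -1.0.

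Osteopontin and a pair of related mineral matrix genes were far higher in A. Of the 17 listed genes of bone and mineral matrix, 8 were tested, 4 of these were called higher and 1 lower, 0 lower without A replicate 3 or parental replicate 2, and 6 of the 17 had no count in either population. Spp1, osteopontin, stood at 1240.0, 1489 and 1390.3 CPM in A, against 96.0, 152 and 99.8 CPM in parental cells (log2 fold change 3.57). Its neighbour on chromosome 5, Dmp1, which binds calcium in dentin and bone, stood at 10.4, 13.1 and 19.0 CPM in A, against 0.0464, 0.191 and 0.220 CPM in parental cells (log2 fold change 5.96). Phex, an endopeptidase of phosphate balance that cleaves peptides of this family (identifier 18675, chromosome X, 157162075 to 157415286), had 8.4, 10.7 and 8.79 CPM in A, against 0.325, 2.10 and 1.26 CPM in parental cells (log2 fold change 2.84, SE 0.74, adjusted p = 0.00208). In all 3 genes every A library exceeded every parental library, which the rule for naming them required. Sparc, a collagen-binding glycoprotein, had 20.4, 41.8 and 42.8 CPM in A, against 12.4, 16.5 and 19.9 CPM in parental cells (log2 fold change 1.10, adjusted p = 0.00693), a call lost without parental replicate 1 (adjusted p = 0.0507). Runx2, the bone lineage transcription factor, averaged 37.1 ± 4.68 CPM in A and 39.6 ± 6.41 CPM in parental cells (log2 fold change -0.09, adjusted p = 0.717). Ibsp, another gene of the phosphoprotein family, had 7 counts over the A libraries and 0 over the parental ones.

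Of 25 tested metalloproteases, ADAMs and their inhibitors 14 (56.0%) were called higher and 2 lower, the median log2 fold change being 0.96. The higher ones include inhibitors. Beside Mmp3, its neighbour Mmp10, stromelysin 2, had 1.89, 4.14 and 3.84 CPM in A, against 0.0929, 0.153 and 0.252 CPM in parental cells (log2 fold change 3.82, SE 0.45, adjusted p = 0.000753). Mmp11, stromelysin 3, had 5.12, 5.12 and 5.66 CPM in A, against 2.00, 2.18 and 2.17 CPM in parental cells (log2 fold change 1.29, SE 0.062, adjusted p = 0.00598). Adam10, the sheddase of Notch and cadherins, had 171, 179.6 and 202 CPM in A, against 72.7, 114 and 97.4 CPM in parental cells (log2 fold change 0.96, SE 0.20, adjusted p = 8.39e-05). All 3 rose without overlap, and the aggrecan-cleaving Adamts4 and Adamts9 rose with log2 fold changes of 2.90 and 2.29.

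The exceptions were Mmp9, a gelatinase, with 4.28, 6.91 and 3.14 CPM in A, against 20.1, 14.7 and 24.9 CPM in parental cells (log2 fold change -2.05, SE 0.39, adjusted p = 0.00302), and Adam12, with 2.99, 3.59 and 1.66 CPM in A, against 8.82, 6.62 and 16.0 CPM in parental cells (log2 fold change -1.91, SE 0.49, adjusted p = 0.000394). Reck, a membrane-anchored inhibitor of metalloproteases, and Timp2 had log2 fold changes of 1.70 and 0.59, and Timp1 had 0.06 (adjusted p = 0.919).

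In the coagulation and plasminogen list 8 of 16 (50%) were called higher and 1 lower, 5 higher without A replicate 2 or parental replicate 3. The lower member, Serpinb5, had too few counts to be tested in a fit of the 6 libraries alone. Tfpi, the inhibitor of tissue factor, had 7.77, 3.07 and 7.53 CPM in A and 0 counts in the 3 parental libraries. Plau, urokinase, had 56.7, 62.4 and 71.8 CPM in A, against 15.2, 24.3 and 33.0 CPM in parental cells (log2 fold change 1.39, SE 0.34, adjusted p = 0.00603). F2r and F2rl1, receptors cleaved by thrombin and by trypsin-like proteases, had 118, 134 and 134 CPM and 17, 10.6 and 14.1 CPM in A, against 46.4, 67.2 and 63.7 CPM and 1.39, 2.91 and 4.06 CPM in parental cells. Every A value lay above the parental values of the same gene. Serpinb5, maspin, had 0 counts in A and 0.557, 0.306 and 0.693 CPM in parental cells, at least 16.1-fold lower with a floor of 3 counts over the A libraries.

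Of 34 extracellular matrix genes 14 (41.2%) were called higher and 3 lower, with a median of 0.88. Thbs1 aside, Col4a5, a chain of basement membrane collagen IV, had 69.5, 75.6 and 110.4 CPM in A, against 11.8, 24.0 and 19.8 CPM in parental cells (log2 fold change 2.19, SE 0.37, adjusted p = 4.32e-07). Col18a1, whose end fragment is endostatin, had 265, 271 and 294 CPM in A, against 89.7, 133 and 99.2 CPM in parental cells (log2 fold change 1.37, SE 0.17, adjusted p = 7.95e-07). The laminin-332 chains Lama3 and Lamb3 went the other way, with 4.45, 4.76 and 3.07 CPM and 9.20, 8.90 and 8.64 CPM in A, against 7.71, 10.1 and 8.82 CPM and 14.9, 14.5 and 16.8 CPM in parental cells. Their log2 fold changes were -1.10 and -0.79.

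Of 20 integrin genes 6 (30.0%) were called higher and 1 lower, 0 lower without A replicate 2 or 3 or parental replicate 3. Itgb2, the beta chain of leukocyte integrins, had 14.5, 19.8 and 17.1 CPM in A, against 2.65, 2.87 and 2.80 CPM in parental cells (log2 fold change 2.60, SE 0.13, adjusted p = 5.18e-07). Itga1, a collagen receptor chain, had 8.01, 8.68 and 10.9 CPM in A, against 0.186, 2.87 and 1.01 CPM in parental cells (log2 fold change 2.69, SE 1.03, adjusted p = 0.000275). Itga7, a laminin receptor chain, had 8.24, 10.1 and 8.39 CPM in A, against 1.76, 1.91 and 2.52 CPM in parental cells (log2 fold change 2.07, SE 0.18, adjusted p = 5.69e-06). All 3 A libraries were above all parental libraries in each, and Itgb8, a chain of the receptor that activates TGF-beta, had log2 fold change 3.70 from a low level.

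The Notch pathway, in which ligands on one cell release the intracellular part of Notch in its neighbour, had 9 of 16 tested genes (56.2%) called higher and 1 lower. The receptor Notch1 had 35.0, 26.7 and 43.5 CPM in A, against 10.9, 7.96 and 10.9 CPM in parental cells (log2 fold change 1.82, SE 0.25, adjusted p = 3.5e-05). The ligand Dll4 had 6.31, 7.66 and 5.47 CPM in A, against 0.929, 0.804 and 1.10 CPM in parental cells (log2 fold change 2.69, SE 0.19, adjusted p = 0.00902). The target Nrarp, a feedback inhibitor, had 22.3, 21.6 and 23.5 CPM in A, against 5.66, 8.30 and 8.97 CPM in parental cells (log2 fold change 1.54, SE 0.21, adjusted p = 1.09e-05). Receptor, ligand and target were each apart from the parental range, as were 44.6% of all tested genes. Notch1 and Dll4 were named partly for this.

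Lfng, a glycosyltransferase that modifies Notch, and the ligand Jag2 had log2 fold changes of 1.55 and 1.27. The ligand Jag1 was the member called lower, with 38.9, 30.8 and 39.6 CPM in A, against 57.3, 42.9 and 79.1 CPM in parental cells (log2 fold change -0.71, SE 0.28, adjusted p = 0.00196). The receptor Notch2 and the DNA-binding partner Rbpj had -0.05 and -0.20, and neither passed the test.

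Of 36 TGF-beta and BMP pathway genes 11 (30.6%) were called higher and 2 (5.56%) lower, 7 higher without A replicate 3 and 0 or 1 lower without any 1 A library or parental replicate 3. Ltbp3, which holds latent TGF-beta, had 215, 200.3 and 204 CPM in A, against 65.6, 53.8 and 64.5 CPM in parental cells (log2 fold change 1.75, SE 0.096, adjusted p = 7.34e-10). Smad3, a signal transducer of TGF-beta, had 164, 150 and 159 CPM in A, against 71.4, 72.7 and 73.8 CPM in parental cells (log2 fold change 1.12, SE 0.041, adjusted p = 2.2e-07). Id2, a dominant-negative transcription factor induced by BMPs, had 16.8, 22.5 and 15.4 CPM in A, against 1.86, 6.35 and 2.36 CPM in parental cells (log2 fold change 2.35, SE 0.56, adjusted p = 1.55e-05). The related Id3 and Id4 rose too, with 1.5 and 4.79, and Id1 averaged 1.56 CPM in A and 0.644 CPM in parental cells (adjusted p = 0.0804). The receptors Tgfbr1 and Tgfbr2 had log2 fold changes of 0.84 and 0.47, the second lost without A replicate 3 (adjusted p = 0.0511). The ligands Tgfb1 and Tgfb3 had 1.01 (adjusted p = 0.0522) and 0.85 (adjusted p = 0.0754), which did not pass.

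Cdh1, E-cadherin (identifier 12550, chromosome 8, 106603350 to 106670247), had 21.1, 19.9 and 26.1 CPM in A, against 77.8, 53.6 and 73.2 CPM in parental cells (log2 fold change -1.60, SE 0.20, adjusted p = 9e-07). Epcam, an adhesion protein of epithelia, had 47.3, 45.2 and 47.8 CPM in A, against 17, 17.4 and 19.3 CPM in parental cells (log2 fold change 1.38, SE 0.061, adjusted p = 1.04e-06). Krt8, a keratin of simple epithelia, had 193, 212 and 200 CPM in A, against 57.1, 65.0 and 56.2 CPM in parental cells (log2 fold change 1.76, SE 0.077, adjusted p = 1.2e-06). Cdh1 was thus lower in every A library, and Epcam and Krt8 were higher in every one.

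Of the 31 epithelial junction genes 9 (29.0%) were called higher and 9 (29.0%) lower. Among the higher ones were Cldn9, at 6.63 CPM in A and 0.170 CPM in parental cells, Ocln (0.87) and the catenin Ctnnb1, with 534, 600.3 and 529 CPM in A, against 266, 274 and 302 CPM in parental cells (log2 fold change 0.98, SE 0.08, adjusted p = 1.22e-05). Among the lower ones were Mal2, with log2 fold change -7.91, the polarity gene Crb3, with -2.73, the splicing factor Esrp2, with -1.14, and the desmosomal Dsp, with -0.70. Of 6 tested keratins, Krt7, Krt8 and Krt18 were called higher and Krt14 was called lower, at 0, 0.261 and 0.0615 CPM in A, against 1.67, 0.536 and 0.189 CPM in parental cells, where the libraries overlap and the call was lost without A replicate 1 or 3 or parental replicate 1 (adjusted p up to 0.16).

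Of 16 mesenchymal genes 9 (56.2%) were called higher and 0 lower. Vim, vimentin, had 423, 566 and 506 CPM in A, against 191, 272 and 246 CPM in parental cells (log2 fold change 1.07, SE 0.20, adjusted p = 0.00936). Cd44, a receptor of hyaluronan and osteopontin, had 319, 327 and 347 CPM in A, against 162, 216 and 199 CPM in parental cells (log2 fold change 0.78, SE 0.13, adjusted p = 0.00125). Twist1, a transcription factor of epithelial-mesenchymal transition, had 10.5, 16.8 and 15.7 CPM in A, against 6.87, 6.31 and 10.0 CPM in parental cells (log2 fold change 0.88, SE 0.29, adjusted p = 0.00678). These 3 rose with no overlap, and the call of Vim was lost without parental replicate 1 (adjusted p = 0.0748). Zeb2 and Snai1, of the same class, had log2 fold changes of -0.11 (adjusted p = 0.713) and -0.26 (adjusted p = 0.82). S100a4 had 1.65, a call lost without A replicate 2 or 3 or parental replicate 1 or 3 (adjusted p up to 0.0927).

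Pdgfra, a receptor tyrosine kinase that is also a fibroblast marker, had 21.0, 24.4 and 33.8 CPM in A, against 7.20, 6.77 and 7.43 CPM in parental cells (log2 fold change 1.88, SE 0.21, adjusted p = 4.49e-05). Of 8 fibroblast markers 5 were at 0 in each population, and Pdgfrb, Dcn, Lum and Thy1 were at 0 in both. The summed level of the 8 was 21.2 to 33.8 CPM in A and 6.97 to 7.56 CPM in parental cells, nearly all of it Pdgfra.

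**Figure D3:**
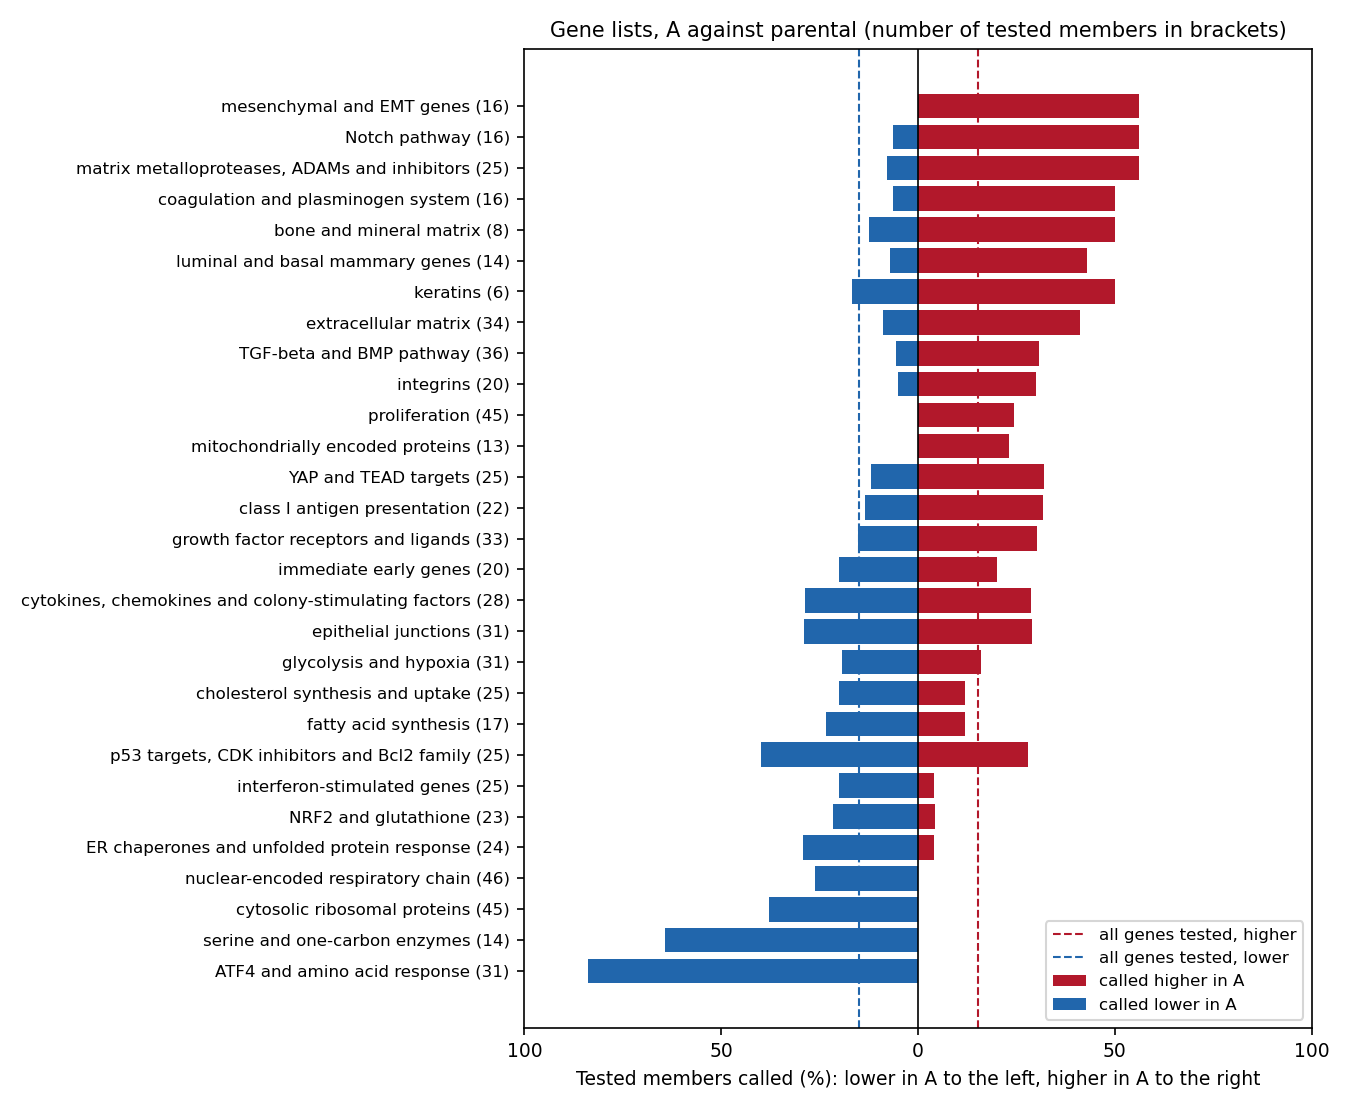
Percentage of the tested members of each gene list with at least 6 tested members, all but 1 list, that were called higher (red, to the right) or lower (blue, to the left) in A than in parental cells, with the shares over all tested genes as dashed lines at 15.1% and 14.9%. The ATF4 list, with 83.9% lower, lies at one end, and the mesenchymal, Notch and metalloprotease lists, with 56.0% to 56.2% higher, at the other.

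Growth factor receptors and ligands had 10 of 33 (30.3%) called higher and 5 (15.2%) lower, 3 lower without A replicate 1 or 2. Fgfr2, a receptor of fibroblast growth factors, had 76.3, 65.7 and 88.9 CPM in A, against 22.2, 21.5 and 24.7 CPM in parental cells (log2 fold change 1.75, SE 0.14, adjusted p = 9.49e-07). Epha4, an ephrin receptor, had 22.3, 17.9 and 25.1 CPM in A, against 3.76, 3.52 and 7.18 CPM in parental cells (log2 fold change 2.15, SE 0.35, adjusted p = 0.0003). Vegfc, a growth factor of lymphatic vessels, had 1.13, 2.41 and 3.11 CPM in A, against 9.61, 6.39 and 11.6 CPM in parental cells (log2 fold change -2.02, SE 0.49, adjusted p = 4.29e-05). The receptors rose and Vegfc fell, in each case in all 3 A libraries.

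Cytokine genes changed both ways, 8 of 28 (28.6%) higher and 8 lower. Ccl2, a chemokine that draws monocytes, had 0 counts in A and 1.90, 3.90 and 6.42 CPM in parental cells, at least 127-fold lower in A. Cxcl16, a chemokine for T cells, had 5.71, 8.77 and 6.15 CPM in A, against 20.4, 19.3 and 25.2 CPM in parental cells (log2 fold change -1.65, SE 0.22, adjusted p = 1.2e-07). Tslp, an epithelial cytokine, had 20.1, 18.3 and 22.7 CPM in A, against 2.37, 4.25 and 4.25 CPM in parental cells (log2 fold change 2.46, SE 0.29, adjusted p = 1.2e-07). Its rise stood beside those of Cx3cl1 (2.25), a membrane-bound chemokine, Il11 (3.17), a cytokine with effects on bone turnover, and Il1a (2.84). The NF-kappa-B subunits Relb and Nfkb2 had -1.20 and -0.80.

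Immediate early genes, which respond quickly to growth factors and handling, had 4 of 20 (20%) called higher and 4 lower. Fosb had 21.8, 16.8 and 12.1 CPM in A, against 0.696, 1.68 and 1.45 CPM in parental cells (log2 fold change 3.64, SE 0.44, adjusted p = 7.63e-09). Dusp6, a phosphatase that is induced by and turns off ERK, had 122, 148 and 143 CPM in A, against 48.8, 59.8 and 63.8 CPM in parental cells (log2 fold change 1.26, SE 0.14, adjusted p = 1.55e-05). Klf6 had -0.70. Atf3 and Myc are members of this list too, and fell.

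Of 31 glycolysis and hypoxia genes 5 (16.1%) were called higher and 6 (19.4%) lower, close to the shares of all genes. Car9, a carbonic anhydrase induced by low oxygen, had 8.87, 9.75 and 13.1 CPM in A, against 1.67, 1.07 and 1.35 CPM in parental cells (log2 fold change 2.90, SE 0.24, adjusted p = 1.93e-07). Ndrg1, induced by low oxygen as well, had 25, 37.4 and 36.9 CPM in A, against 185, 223 and 163 CPM in parental cells (log2 fold change -2.52, SE 0.23, adjusted p = 4.32e-11). The pair moved in opposite directions without overlap. Nuclear genes of the respiratory chain had 12 of 46 (26.1%) called lower and 0 higher, 1 higher without parental replicate 2, with Ndufa9, a complex I subunit, at -1.32 and Atp5b, of the ATP synthase, at -0.96.

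Several of the strongest falls lay close together on chromosome 15, in windows picked after their values were seen. Between 60 and 70 Mb, 13 of 17 tested genes were called lower and 0 higher, with a median log2 fold change of -1.86. Between 50 and 60 Mb, 23 of 36 were called lower and 4 higher, with a median of -0.91, the lowest of the 213 windows of 10 Mb that held at least 20 tested genes, whose medians went up to 0.59. Mal2, Myc, Ndrg1 and Derl1 lie here, as do Zhx2, at 7.66 CPM in A and 44.3 CPM in parental cells, Rnf139, at 17.2 CPM in A and 76.7 CPM in parental cells, and Phf20l1, at 29.5 CPM in A and 117 CPM in parental cells. These 3 genes were picked in the same way. The 4 genes called higher were the secreted Ccn3, the hyaluronan synthase Has2, Fer1l6 and the pseudokinase Trib1. Over the whole chromosome 31.3% of 486 tested genes were called lower and 10.3% higher.

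Other chromosomes leaned to one side as well. Lower calls were 27.3% of tested genes on chromosome 8 and 26.2% on chromosome 14, with 6.97% and 5.81% higher. Higher calls were 25.7% on chromosome 16, 25.1% on X and 24.2% on chromosome 9, with 6.62%, 7.47% and 8.22% lower. Of the 26 ATF4 list members called lower, 9 lay on chromosomes 15, 8, 14, 11 or 6, and 17 on other chromosomes. The chromosomes named first held 486, 674, 413, 1008 and 589 of the 12712 tested genes. Chromosomes 11 and 6 had 22.3% and 21.4% called lower. Chromosomes 18 and 19, counted among the others, had 20.9% and 19.0%. Whether the fall of the list depends on the chromosome was not tested.

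**Figure D4:**
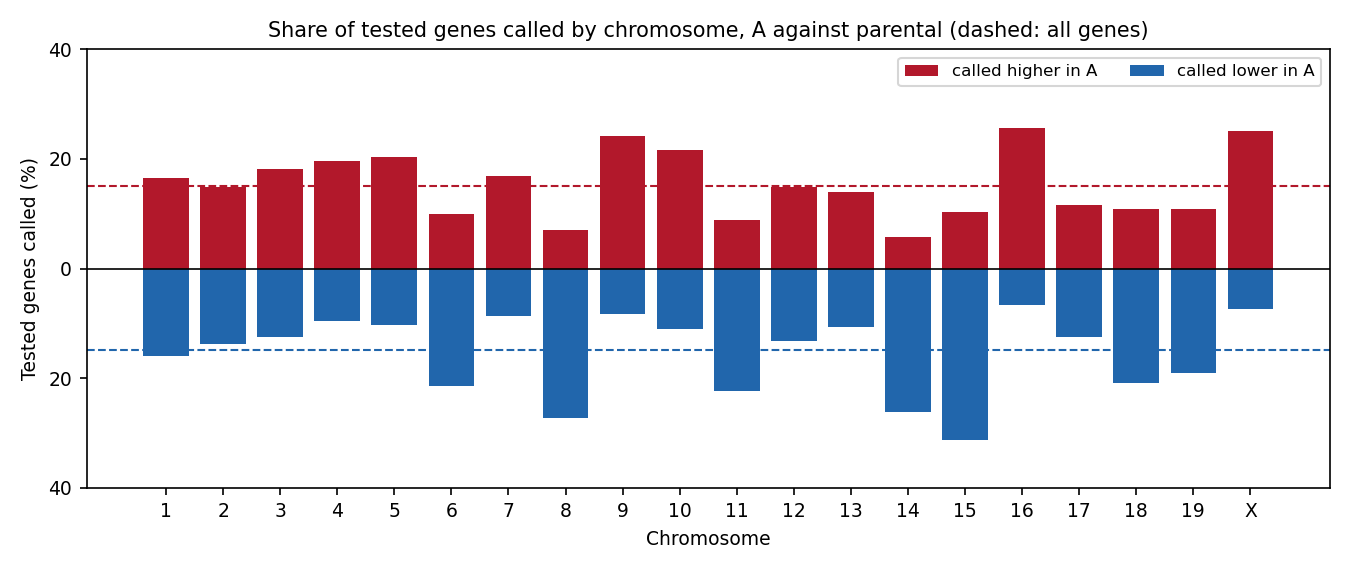
Percentage of tested genes on each chromosome called higher (red, upward) or lower (blue, downward) in A than in parental cells, with the shares over all genes as dashed lines. Chromosome 15 has the deepest lower bar, 31.3%, and chromosomes 16, X and 9 have the tallest higher bars, 24.2% to 25.7%.

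A was next set against the mean of E1, E2 and M, which were transfected, isolated and selected as A was. In this comparison 3956 genes were called (31.1% of those tested), 16.4% higher and 14.8% lower in A. Called against the parental cells and against each of E1, E2 and M in 1 direction were 511 genes higher in A and 567 lower, where the calls of A against E1, E2 and M alone made up 29.6%, 22.4% and 17.7% of those tested. Several genes with the largest differences from parental cells were also among these. Dmp1 averaged 14.2 CPM in A, and 0.0831, 0.0435 and 0.273 CPM in E1, E2 and M. Spp1 averaged 1373 CPM in A, and 36.6, 42.2 and 108 CPM in E1, E2 and M. For Sema7a the averages were 41.2 CPM in A, and 2.78, 3.63 and 9.06 CPM in E1, E2 and M. A was far above the other clones in all 3 genes, with M the next in order.

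The ATF4 list was lower in A than in the other clones for 26 of 31 tested members and higher for 2, with a median log2 difference of -0.92. Atf3 averaged 2.03 CPM in A, and 16.3, 11.4 and 10.1 CPM in E1, E2 and M (log2 difference -2.56, adjusted p = 8.74e-09). Asns differed by -1.39 (adjusted p = 1.11e-08) and Mthfd2 by -1.90 (adjusted p = 2.62e-11). Vldlr was an exception, lower than in parental cells but higher than in the other clones by 1.23. Of the serine and one-carbon enzymes 10 of 14 were lower than in the other clones and 0 higher.

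Of the ER genes 11 of 24 were called higher in A than in the other clones and 2 lower. Hspa5 averaged 220.4 CPM in A, and 452, 355 and 253 CPM in E1, E2 and M, so A had the lowest mean, but Xbp1 and Manf were higher in A by 1.07 and 0.96. Of the TGF-beta and BMP genes 21 of 36 were higher in A than in the other clones and 2 lower. Tgfbr3, a coreceptor that did not differ between A and parental cells beyond the test (0.56, adjusted p = 0.196), was higher than in the other clones by 3.27 (adjusted p = 9.86e-11). Myc averaged 37.6 CPM in A, and 153, 130.4 and 94.6 CPM in E1, E2 and M (log2 difference -1.71, adjusted p = 1.46e-10).

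Not all differences from the parental cells were found between A and the other clones. Thbs1 (log2 difference 0.00, adjusted p = 0.989), Dll1 (-0.10, adjusted p = 0.76), Epcam (-0.05, adjusted p = 0.826) and Aldh1l2 (-0.28, adjusted p = 0.525) did not pass the test there. Against parental cells Thbs1 and Dll1 had log2 fold changes of 2.66 and 1.97. Itga7 (0.09, adjusted p = 0.805), Insig1 (0.14, 0.807), Ccn2 (-0.19, 0.519), Epha4 (0.31, 0.433), Car9 (0.58, 0.0582) and Mal2 (-1.26, 0.0532) did not differ from the other clones beyond the test either. On chromosome 9, 41.1% of tested genes were higher in A than in the other clones and 2.92% lower. On chromosome 6, 32.1% were lower and 8.49% higher. The lean of chromosomes 8 and 14 to lower calls was not seen here, with 15.3% and 8.96% lower and 14.4% and 22.8% higher. Chromosome 15 had 24.1% lower and 12.6% higher. Its windows from 50 to 60 and from 60 to 70 Mb had median log2 differences of -0.30 and -0.94. Chromosomes 16 and X had 26.0% and 17.6% higher and 9.41% and 11.5% lower.

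**Figure D5:**
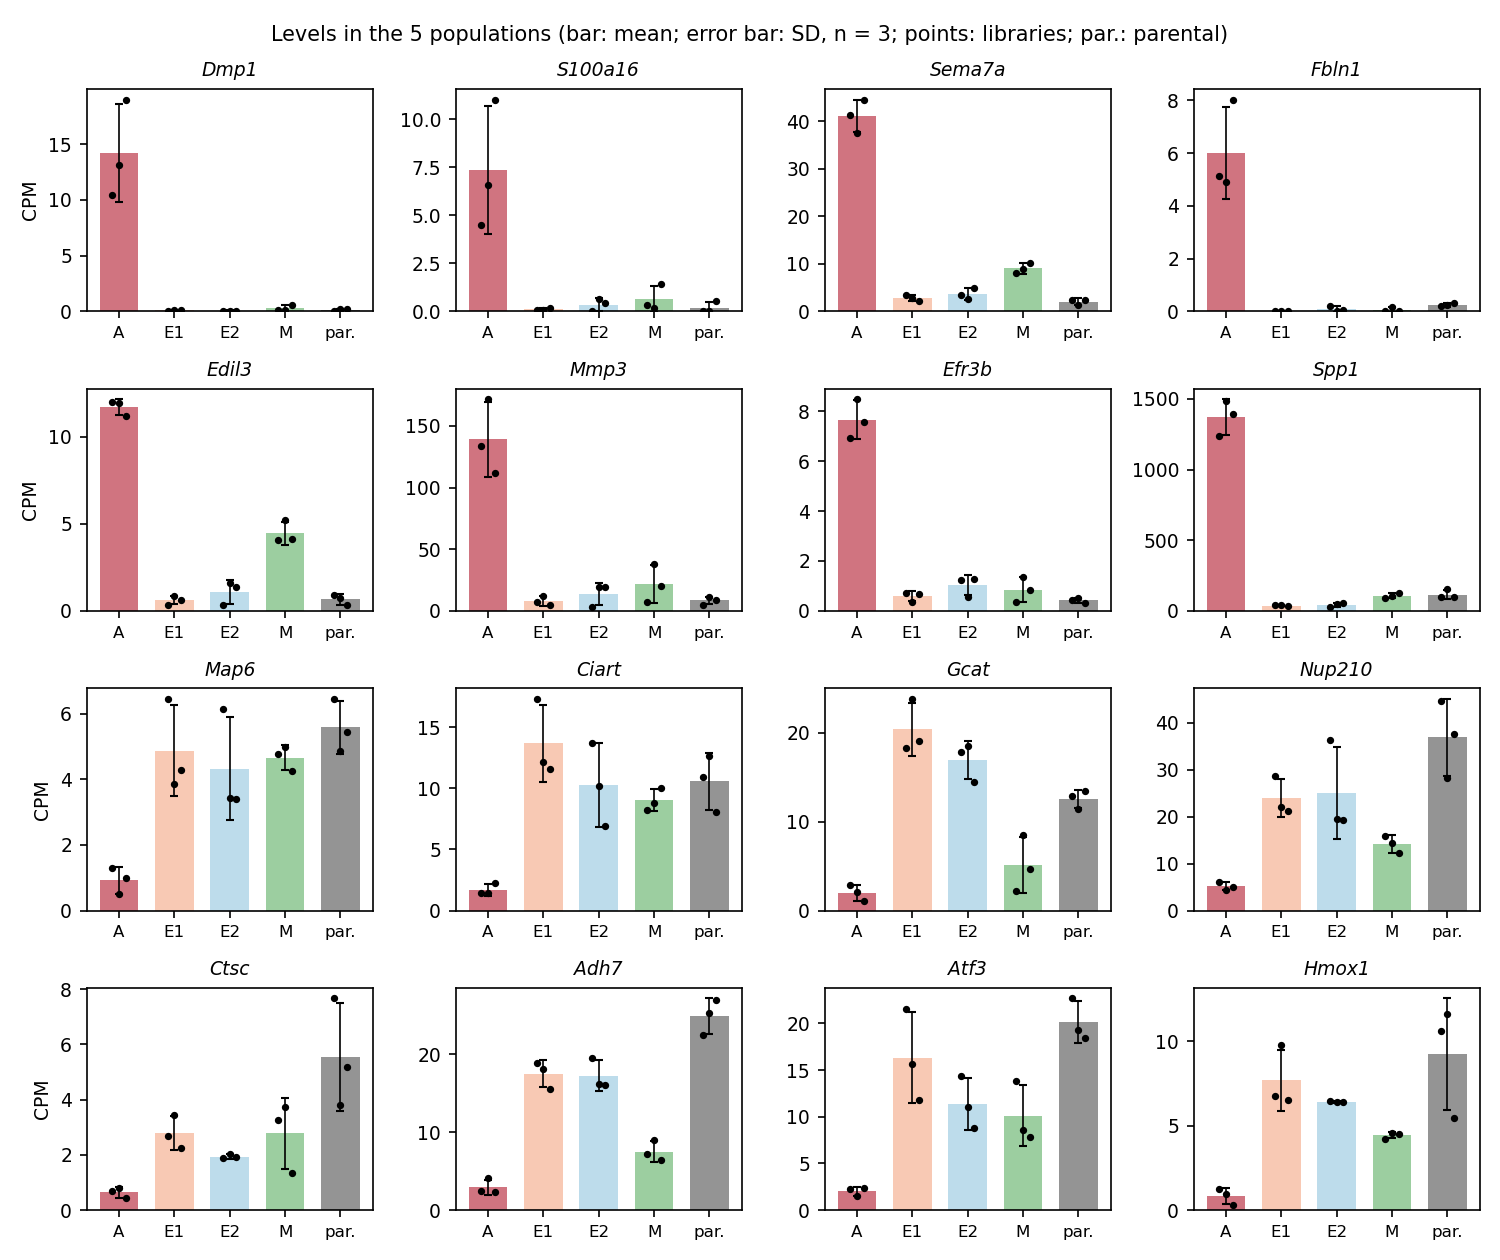
CPM in A, E1, E2, M and parental cells (bars with SD, n = 3, and points for libraries) of 8 genes higher and 8 lower in A. All but Spp1 were chosen by their size of change in A among genes also called against each other clone, so A is the highest or lowest by choice. Spp1 was added by name, and Tfpi, which met the same rule, is not shown. Dmp1 averages 14.2 CPM in A and at most 0.273 CPM in the other 4 populations.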

How the data were processed

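RNA from 3 A and 3 parental cultures, called biological replicates in the labels, was made into directional libraries and sequenced. Nothing states that the cultures were separate beyond that, so p-values measure the spread between these libraries. The deposited files used here hold raw counts per gene made by the authors, and the submitters' processing notes list HISAT2, featureCounts and DESeq2 with the builds GRCm38 and mm10. Versions and the strand setting of the counting are not given in the sources used here, so reads of overlapping antisense genes cannot be told apart. The other deposited tables were not used here.

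Entrez identifiers were joined to RefSeq names (25275 of 27179) and GENCODE links (18). Counts of all 15 libraries were fitted with edgeR 4.0.16 in R 4.3.3 (filterByExpr with minimum count 10 and minimum total 15, TMM factors 0.994 to 1.05 in A and 0.847 to 1.01 in parental libraries, robust quasi-likelihood F tests, prior count 2, Benjamini-Hochberg adjustment over the 12712 tested genes), with population as the only term, and checked on simulated counts. The biological coefficient of variation was 0.255. SEs come from the spread of log2 CPM over libraries. A population without counts was given a floor of 3 counts. A floor of this kind covers counting error only.

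The comparison, gene lists and tests were chosen with earlier results of these data known. Named genes had a call and libraries without overlap, and outside the lists at least 5 CPM in the higher population: the 15 largest changes each way, up to 4 per list and direction, the 8 largest each way also called against E1, E2 and M, and the 6 largest differences in CPM each way. Further list members were added after their values were seen. Alternatives were DESeq2 1.42.0, RLE factors, no filter, the 6 libraries alone, no 6 top genes, a replicate block and leaving out each library. Of the lists, 1 gene and 1 list are not reported here.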

Additional observations from a re-analysis of the deposited data

Results flagged for a closer look

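For 7 of the 188 genes named by the rule A was called one way against the parental cells while E1, E2 and M were each called the other way, and A was called against each of them. The difference between A and the mean of the 3 clones was tested in the same edgeR fit, but the genes were picked by calls of these same samples, so its adjusted p restates the choice and is no independent support. Serpinb5, maspin, was lower in A than in parental cells (log2 fold change -3.10, with 0 counts in A) and rose by 3.16, 3.89 and 2.58 in E1, E2 and M. A differed from the clones by -6.31 (adjusted p = 2.34e-09), where the size of both values depends on the prior count. Adam12, a metalloprotease, differed between A and the clones by -3.15 (adjusted p = 9.78e-07), having fallen by 1.91 in A against rises of 1.33, 1.41 and 1.0 in E1, E2 and M.

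Genes for 2 chains of the basement membrane protein laminin-332 were among them. Lama3 differed by -2.38 (adjusted p = 8.64e-07) and Lamb3 by -1.98 (adjusted p = 4.62e-08), with values against parental cells of -1.10 and -0.79 in A, and from 0.97 to 1.5 for Lama3 and from 1.01 to 1.29 for Lamb3 in the other clones. The Notch ligand Jag1 differed by -1.70 (adjusted p = 3.04e-09), being -0.71 in A and 1.06, 1.12 and 0.77 in E1, E2 and M. Fads3, a fatty acid desaturase family member, differed by -1.67 (adjusted p = 8.28e-09), and its call against parental cells was lost without A replicate 3 (adjusted p = 0.135). H2-K1, a class I heavy chain with near-identical relatives whose reads may be shared, went the other way. It was 0.62 higher in A than in parental cells and 0.43 to 0.50 lower in each other clone, and A differed from the clones by 1.08 (adjusted p = 4.81e-08).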

How the results depend on the processing

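The counts of called genes stayed within 1.5 times under all 12 alternatives. Called genes numbered 3814, with 3812 to 4156 under the other settings and 2997 to 3538 when 1 library was left out. Higher calls were 1811 to 2114 and 1466 to 1782, lower calls 1899 to 2068 and 1480 to 1756, and changes of at least 2-fold 1688 to 1840 and 1495 to 1765. For A against the mean of E1, E2 and M, 3956 became 3955 to 4300 and 2869 to 4114. The median over all genes moved by less than 0.1 between settings. Of 188 genes named by the rule, 149 kept the call and direction in every alternative that tested them. The call was lost at least once for 39, for 31 of them only when a library was left out, and 0 reversed. Of the 149 other called genes of the lists and of chromosome 15, 59 lost the call at least once and 0 reversed. Genes that an alternative did not test are not counted as lost. DESeq2 lost 0 of those of the 188 to which it gave an adjusted p.

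Libraries of A and parental cells that share a replicate number did not deviate together (correlations 0.0562, 0.0105 and 0.0276 across genes). Not every library correlated best with its own number, and the numbers are not read as pairs. These correlations cover A and parental libraries only. In every population replicate 1 had the largest share of counts in the top identifier, 39.3% in A and 49.3% in parental cells. Whether the numbers mark a shared batch was not tested. With a replicate block 4156 genes were called, and Csf2 (adjusted p = 0.0529) and Rn7sk (0.0712) lost the call.

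Over all libraries 61.4% to 72.1% of counts belonged to 6 identifiers, which left 7096885 to 11454056 counts for all other genes in the A and parental libraries. The highest share, 72.1%, was that of parental replicate 1, which also had the lowest TMM factor (0.847). Genes under 1 CPM rest on few reads, and with 3 libraries a group 1 library decided many calls near the threshold.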

Other observations

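Class I antigen presentation genes had 7 of 22 members (31.8%) called higher in A than in parental cells and 3 (13.6%) lower, but 3 higher without A replicate 3 or parental replicate 3. H2-Q4 had 27.6, 34.2 and 45.7 CPM in A, against 20.9, 19.7 and 19.2 CPM in parental cells (log2 fold change 0.84, adjusted p = 0.00109), whereas the immunoproteasome subunit Psmb10 fell, with 1.96, 3.23 and 2.86 CPM in A, against 7.75, 5.28 and 7.94 CPM in parental cells (log2 fold change -1.36, adjusted p = 0.00079). Reads of H2 genes may be shared among near-identical copies. Against E1, E2 and M, 12 of the 22 were higher in A and 3 lower. Of 25 interferon-stimulated genes 5 (20%) were lower than in parental cells and 1 higher, with Rsad2, an antiviral enzyme, at 0, 0.326 and 0.123 CPM in A, against 2.83, 2.33 and 3.31 CPM in parental cells (log2 fold change -3.72, adjusted p = 0.000488), and Cd274, which encodes PD-L1, at 0.432, 1.21 and 1.48 CPM in A, against 3.25, 5.66 and 3.21 CPM in parental cells (log2 fold change -1.89, adjusted p = 0.00225).

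Of 25 cholesterol synthesis and uptake genes 3 (12%) were called higher in A than in parental cells and 5 (20%) lower, 2 lower without A replicate 1 or 3 and 3 without parental replicate 2 or 3. Msmo1, a sterol demethylation enzyme, had 16.4, 26.5 and 17.6 CPM in A, against 56.8, 68.0 and 57.1 CPM in parental cells (log2 fold change -1.59, adjusted p = 2.85e-06). Insig1, which holds back sterol synthesis, had 49.3, 65.2 and 53.1 CPM in A, against 6.41, 13.2 and 7.27 CPM in parental cells (log2 fold change 2.63, adjusted p = 0.00119). Against E1, E2 and M, 17 of the 25 were lower in A and 1 higher, with a median log2 difference of -1.11. Fatty acid synthesis genes had 10 of 17 lower in A than in these clones and 1 higher, where 4 were lower than in parental cells, 0 without A replicate 3 and 2 without parental replicate 3. Of 23 NRF2 and glutathione genes 1 was higher, 2 without parental replicate 1, and 5 (21.7%) were lower, and the glutathione synthesis enzymes Gclc and Gclm had log2 fold changes of -0.97 and -0.92 against parental cells. Of the mitochondrially encoded proteins 3 of 13 (23.1%) were higher than in parental cells and 0 lower, with 0 higher without A replicate 2 or parental replicate 3 and 1 without A replicate 3. In 5 other settings, namely no filter, the 6 libraries alone, the top 6 genes left out, a replicate block and DESeq2, 1 was called lower. Of the same list 10 of 13 were higher in A than in the other clones and 0 lower.

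Of 25 YAP and TEAD targets 8 (32.0%) were called higher than in parental cells and 3 lower, 5 higher without A replicate 3. Amotl1, an angiomotin that binds YAP, had 661, 618 and 679 CPM in A, against 236, 319 and 292 CPM in parental cells (log2 fold change 1.21, adjusted p = 4.42e-07), and Ccn2, a secreted matricellular protein, had 44.8, 52.8 and 72.8 CPM in A, against 14.1, 16.4 and 23.1 CPM in parental cells (log2 fold change 1.66, adjusted p = 6.7e-05). Of the luminal and basal mammary genes 6 of 14 (42.9%) were higher and 1 lower, 0 lower without A replicate 1 or 3 or parental replicate 1. Csn3, the milk protein kappa-casein, had 7.34, 7.57 and 6.86 CPM in A, against 0.511, 1.26 and 1.13 CPM in parental cells (log2 fold change 2.81, adjusted p = 0.0068), and Sox9, a progenitor transcription factor, had 153, 153 and 189 CPM in A, against 33.8, 65.1 and 43.9 CPM in parental cells (log2 fold change 1.79, adjusted p = 2.89e-06). All A libraries of Amotl1, Ccn2, Csn3 and Sox9 lay above all parental libraries.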
